A study of Mus musculus with 14 samples.

Results

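Cells of the subependymal zone that carried both GFP and prominin (SEZ_GFPprom) were set against GFP-positive cells of the diencephalon (DIEC_GFP). The members are the arrays that the labels place in these groups, 8 of the 14 arrays of the series with 4 in each group, and the difference between them was taken for all 18193 genes with a named probe set. The subependymal zone is the thin layer along the lateral ventricle in which neurons are born throughout adult life, and the diencephalon holds the thalamus and hypothalamus. All cells came from hGFAP-eGFP mice aged 8 weeks, in which the human GFAP promoter drives enhanced green fluorescent protein. Both groups therefore carry the transgene, and its light reports the activity of that promoter rather than the mouse Gfap gene. SEZ_GFPprom cells had been sorted for GFP together with prominin and are labelled neural stem, while DIEC_GFP cells had been sorted for GFP alone and are labelled astrocytes. Region and the prominin gate thus differ together between the groups. SEZ_GFP (n = 2), cells of the subependymal zone sorted for GFP alone, shares the region with the one and the gate with the other. Its arrays were used to write each difference as the sum of a prominin step (SEZ_GFPprom minus SEZ_GFP) and a region step (SEZ_GFP minus DIEC_GFP). The labels call the arrays biological replicates without saying how many animals stand behind them, so a p-value speaks only of the spread among these arrays.

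Neural stem cells of the adult subependymal zone are astrocyte-like cells that touch the ventricle with a prominin-bearing process. They give rise to fast-dividing transit-amplifying progenitors, which switch on Dlx homeobox genes and produce neuroblasts bound for the olfactory bulb. The ventricular wall is also lined by ependymal cells, whose many beating cilia carry prominin too. Astrocytes of the mature diencephalon rarely divide and are known for clearing transmitters and potassium from the space around neurons and for passing metabolites to them.

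The values are array intensities on a linear scale, read from the brightest probe set of each gene. A difference is given as log2 of SEZ_GFPprom minus log2 of DIEC_GFP, with its standard error (SE), and a gene passed where limma's adjusted p lay below 0.05. From 25.5% to 25.7% of the probe sets of each of the 8 arrays read 10 or less, and where a gene lies that low in a group the size of its difference is uncertain. In these mixed sorted cells, fewer cells of a type and less RNA per cell cannot be told apart.

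DIEC_GFP replicate 4 stood apart from the other DIEC_GFP arrays in several gene groups. The spike-in control transcript dap, which is added to RNA before labelling, read 38, 7, 7 and 5 on the SEZ_GFPprom arrays, against 267, 126, 291 and 5 on DIEC_GFP replicates 1 to 4. It read 8 and 6 on the SEZ_GFP arrays, so the region step too sets arrays without this signal against DIEC_GFP replicates 1 to 3 with it, while the prominin step does not. Only DIEC_GFP holds arrays of both kinds, and the labels name no batch. Of 24 astrocyte transporter and channel genes, 22 were lower on DIEC_GFP replicate 4 than on each other DIEC_GFP array, as were 17 of 21 mature neuron genes, while 41 of 73 mitosis genes were higher there than on each of the others. Over all genes tested the shares were 23% lower and 23.7% higher, and by the number of genes over 1 log2 unit from the mean of the other arrays of the group, SEZ_GFPprom replicate 3 (2183) and DIEC_GFP replicate 3 (2081) stood farther off than DIEC_GFP replicate 4 (1964). Counts are therefore also given without DIEC_GFP replicate 4, and with the spike-in signal as a block, which sets the SEZ_GFPprom arrays against DIEC_GFP replicate 4 alone and assumes that this lone array varies like the others. The log2 ratio of 3' to 5' signal of the control transcripts, a measure of RNA shortening, ran from 4.78 to 5.17 on SEZ_GFPprom arrays and from 5.04 to 5.74 on DIEC_GFP arrays. Its part in the results was not tested beyond a fit with it as a covariate.

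**Figure D1:**
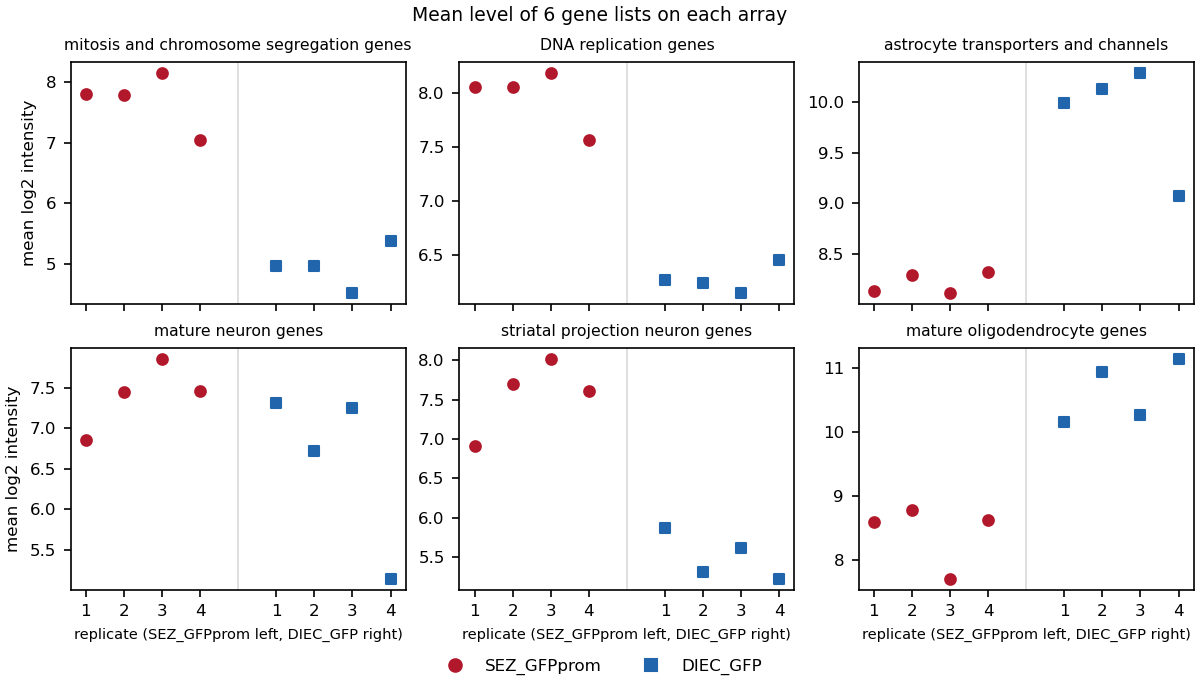
Mean log2 intensity of 6 gene lists (vertical axes, arbitrary intensity units) on each of the 4 SEZ_GFPprom arrays (red circles, left) and 4 DIEC_GFP arrays (blue squares, right). DIEC_GFP replicate 4 lies below the other DIEC_GFP arrays for mature neuron genes (5.15 against 6.72 to 7.31) and astrocyte transporters (9.08 against 9.99 to 10.28), and above them for mitosis genes (5.37 against 4.53 to 4.97).

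Of the 18193 genes, 1832 were higher in SEZ_GFPprom (10.1%) and 1415 lower (7.78%). The spread behind these calls was taken from all arrays of the series, so leaving out an array of another sort can also end a call. Without DIEC_GFP replicate 4 the counts were 1832 and 1491, and with the spike-in block 427 (2.35%) and 363 (2.00%), together 4.34% of genes. Leaving out SEZ_GFPprom replicate 3 gave 1464 higher and 1140 lower genes, and leaving out DIEC_GFP replicate 3 gave 1644 and 1262. The count of higher genes fell to 1197 without DIEC_GFP replicate 2. With only the 8 arrays compared in the fit, 1344 genes were higher and 1076 lower. At least 16-fold differences were found for 30 higher and 10 lower genes among those that passed. The median over all genes was 0.08. The groups did not overlap, with every SEZ_GFPprom array above every DIEC_GFP array, in 11.6% of genes, and the reverse held in 7.77%.

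The genes behind the sort were read first. Gfap, the astrocyte filament gene, read 845, 588, 142 and 366 in SEZ_GFPprom and 572, 323, 403 and 263 in DIEC_GFP. The groups overlapped in Gfap, with SEZ_GFPprom replicate 1 the highest and replicate 3 the lowest of all 8 arrays (difference 0.10 ± 0.47, SE; 95% interval -0.93 to 1.13; adjusted p = 0.91). Prom1, which encodes prominin, read 426, 664, 441 and 514 in SEZ_GFPprom and 271, 224, 263 and 290 in DIEC_GFP. The groups did not overlap, but the difference of 0.95 ± 0.38 did not pass (95% interval 0.11 to 1.78; adjusted p = 0.113). Cd24a, a surface antigen of neuroblasts and ependymal cells, read 1641, 1117, 990 and 1254 in SEZ_GFPprom and 496, 868, 718 and 391 in DIEC_GFP (1.06 ± 0.32, adjusted p = 0.0423). Its call was lost on leaving out any of 9 arrays (adjusted p = 0.0506 to 0.104).

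The largest difference was that of Thbs4, a secreted thrombospondin of the extracellular matrix, which read 1212, 911, 934 and 1077 in SEZ_GFPprom and 16, 11, 14 and 27 in DIEC_GFP. Its lowest SEZ_GFPprom array was far above its highest DIEC_GFP array, and the SEZ_GFP arrays lay between the groups at 653 and 441. Thbs4 was 63.9-fold higher (6.0 ± 0.33, adjusted p = 3.26e-06), with a region step of 5.06 and a prominin step of 0.94. Its relatives had other values: Thbs1 read 9 to 11 in SEZ_GFPprom and 7 to 11 in DIEC_GFP, and Thbs3 differed by -0.54 (adjusted p = 0.37). Thbs2 fell by 1.46 on the log2 scale (adjusted p = 0.0286), a call lost on leaving out any of 6 arrays (adjusted p = 0.0501 to 0.0776).

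Among 26 genes of neural stem cells and radial glia 7 rose (26.9%) and 5 fell (19.2%), beside 10.1% and 7.78% of all genes. The other 14 missed the threshold, the median was 0.29, and 3 fell without replicate 2 of either group. Without DIEC_GFP replicate 4, 7 rose and 4 fell, and with the spike-in block 3 rose and 1 fell (median 0.30). Nr2e1, an orphan nuclear receptor needed for stem cell upkeep, read 102, 61, 54 and 40 in SEZ_GFPprom, against 21, 5, 11 and 17 in DIEC_GFP (2.35 ± 0.41, adjusted p = 0.00281). Vim, the filament gene vimentin, read 2590, 1607, 1631 and 2257 against 846, 936, 891 and 683 (1.25 ± 0.31, adjusted p = 0.0166), and the matrix gene Tnc differed by 1.31 (adjusted p = 0.00688). The transcription factor genes common to stem cells and astrocytes stood close in the groups: Sox2 read 573 to 705 in SEZ_GFPprom and 482 to 656 in DIEC_GFP (0.19, adjusted p = 0.545), and Sox9 182 to 331 and 193 to 265 (0.30, adjusted p = 0.336). Nes, the nestin gene, differed by 0.46 (adjusted p = 0.0553). Members that fell included Hopx, a homeodomain gene of quiescent stem cells and astrocytes (-1.63, adjusted p = 0.00232), and Lifr, a receptor for leukaemia inhibitory factor (-2.05, adjusted p = 0.00178). Lrig1, a brake on growth factor receptors, read 142, 108, 58 and 200 in SEZ_GFPprom and 2465, 2408, 2026 and 802 in DIEC_GFP (-3.93 ± 0.42, adjusted p = 0.000172). Lrig1 differed by 0.49 (adjusted p = 0.118) with shared probe sets left out, so that another probe set stood for the gene. Shared means here that the name marks a sequence found in several transcripts, either of the same gene or of different genes.

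**Figure D2:**
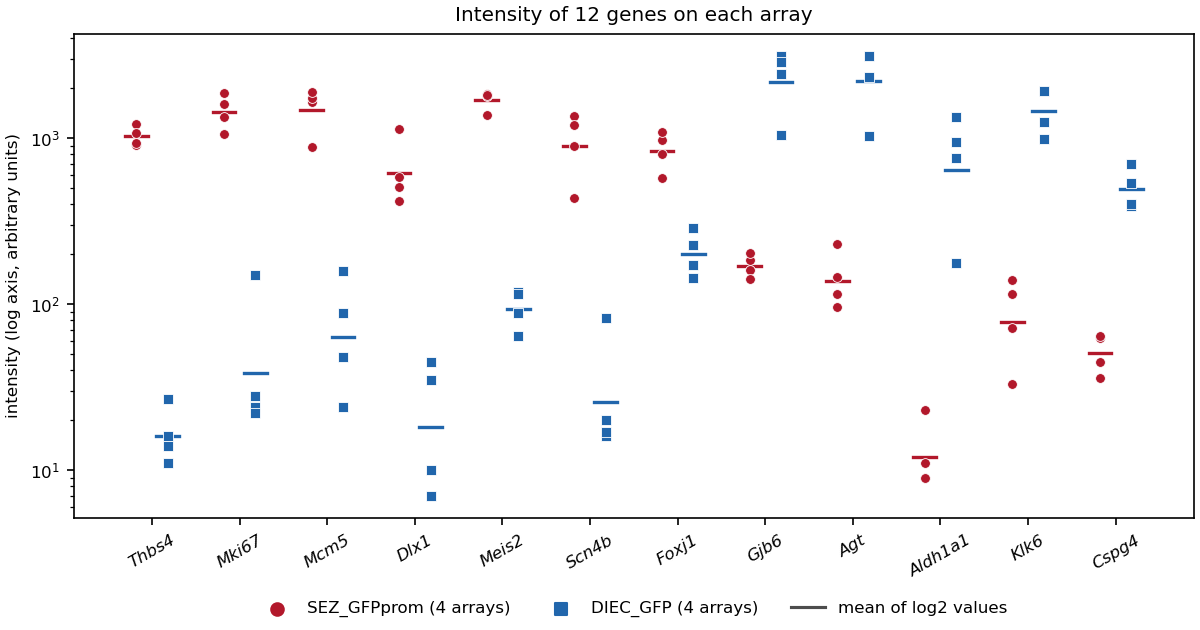
Intensity (vertical axis, log scale, arbitrary units) of 12 genes on each SEZ_GFPprom array (red circles) and each DIEC_GFP array (blue squares), with bars at the mean of the log2 values. The groups do not overlap for any of these genes, from Thbs4, at 911 to 1212 in SEZ_GFPprom and 11 to 27 in DIEC_GFP, to Cspg4, at 36 to 64 in SEZ_GFPprom and 389 to 703 in DIEC_GFP. The genes were chosen after their values were seen. Several come from the 15 highest or lowest differences, for which groups without overlap were a condition. Among all genes 11.6% lay wholly higher and 7.77% wholly lower in SEZ_GFPprom.

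Genes of the cell cycle were high in SEZ_GFPprom. Of 73 mitosis and chromosome segregation genes 64 were higher and 1 lower in SEZ_GFPprom, with a median of 2.83, and of 47 DNA replication genes 32 were higher and none lower, with a median of 1.62. All 47 replication genes had a difference above 0. Without DIEC_GFP replicate 4 the higher counts were 64 and 27, and with the spike-in block 36 and 9, with medians of 2.28 and 1.65. These shares stand beside 10.1% of all genes called higher, and 2.35% with the block.

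Promoters of these genes were searched for short motifs known from cell cycle genes. The 250 bases before the RefSeq start of 3 genes that rose are shown, because each holds letters of such a motif. Capitals mark CCAAT or its reverse complement ATTGG (the CCAAT box) and TTTGAA or TTCAAA (the cell cycle homology region) in Ube2c and Top2a, and GCGGGAA or TTCCCGC (letters of an E2F site) in Uhrf1. They lie on GRCm38.p6, at chr2:164769679-164769928 on the plus strand for Ube2c, chr11:99024190-99024439 on the minus strand for Top2a and chr17:56303087-56303336 on the plus strand for Uhrf1, and are written 5′ to 3′ along the gene.
Ube2c: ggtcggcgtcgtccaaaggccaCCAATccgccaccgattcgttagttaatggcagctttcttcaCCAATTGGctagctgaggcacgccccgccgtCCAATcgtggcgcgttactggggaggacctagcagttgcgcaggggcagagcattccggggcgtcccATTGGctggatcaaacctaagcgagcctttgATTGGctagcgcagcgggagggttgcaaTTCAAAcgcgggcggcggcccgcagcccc
Top2a: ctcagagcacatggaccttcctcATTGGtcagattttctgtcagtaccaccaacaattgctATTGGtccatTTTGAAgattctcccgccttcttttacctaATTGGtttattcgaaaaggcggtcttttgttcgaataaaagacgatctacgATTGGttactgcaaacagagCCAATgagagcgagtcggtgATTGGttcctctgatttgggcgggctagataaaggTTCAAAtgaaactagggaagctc
Uhrf1: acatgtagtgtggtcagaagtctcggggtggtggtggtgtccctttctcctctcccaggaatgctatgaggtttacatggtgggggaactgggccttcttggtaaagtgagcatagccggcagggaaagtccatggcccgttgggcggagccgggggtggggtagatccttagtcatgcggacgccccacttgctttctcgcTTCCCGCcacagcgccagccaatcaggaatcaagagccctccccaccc
The promoter of Ube2c holds 6 CCAAT boxes, of which CCAAT and ATTGG overlap at one place, and 1 cell cycle homology region that begins 29 bases before the start. That of Top2a holds 6 and 2. Over the 300 bases of the RefSeq table, which also take in 50 bases after the start, a CCAAT box was found on either strand in 72.9% of the 59 mitosis promoters, in 65.8% of the 38 replication promoters and in 38.2% of the 14452 promoters of tested genes. The cell cycle homology region stood in 66.1% of mitosis promoters, 13.2% of replication promoters and 13.4% of all tested. The E2F-like letters stood in 36.8% of replication promoters, 5.09% of mitosis promoters and 6.96% of all tested. Over all 27025 promoters of the table the shares were 37.9%, 18.1% and 4.66%. These matches describe letters and no bound factor.

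Ube2c, the ubiquitin-conjugating enzyme that helps cells leave mitosis, read 577, 572, 530 and 362 in SEZ_GFPprom and 18, 15, 34 and 35 in DIEC_GFP (21.1-fold, 4.40 ± 0.27, adjusted p = 8.71e-06). Mki67, the gene of the Ki-67 proliferation antigen, read 1344, 1859, 1607 and 1058 in SEZ_GFPprom and 28, 24, 22 and 151 in DIEC_GFP. The DIEC_GFP array at 151 is replicate 4, and all SEZ_GFPprom arrays lay above it (5.21 ± 0.52, adjusted p = 0.000123; 3.25 with the spike-in block, adjusted p = 0.00291). Cks2, a subunit bound to cyclin-dependent kinases, read 1587, 1827, 1997 and 1239 in SEZ_GFPprom and 44, 25, 12 and 137 in DIEC_GFP (5.48 ± 0.56, adjusted p = 0.000126). Cdca5, which encodes the cohesin protector sororin, read 792, 554, 576 and 97 in SEZ_GFPprom and 9, 7, 7 and 10 in DIEC_GFP. SEZ_GFPprom replicate 4 was the lowest of its group for Cdca5, and with values under 10 set to 10 the difference was 5.31 (5.6 as measured, adjusted p = 9.69e-05). With shared probe sets left out Cdca5 differed by 2.36 (adjusted p = 0.00733). Cdk1, the kinase that starts mitosis, was 19.1-fold higher and its partner Ccna2 18.6-fold (adjusted p = 0.000158 and 0.000755). Top2a, the topoisomerase that untangles chromosomes, read 711, 704, 1286 and 565 in SEZ_GFPprom and 39, 34, 14 and 64 in DIEC_GFP (4.56 ± 0.41, adjusted p = 6.34e-05). For Top2a, Spc25, Cenpa and Kif2c the difference shrank to 0.77, 1.25, 0.58 and 0.18 with shared probe sets left out (adjusted p = 0.112, 0.154, 0.301 and 0.687). The probe sets first read for Top2a and Spc25 are marked as matching transcripts of the same gene. The mitosis gene that fell, Anln, differed by -2.33, and was singled out after its value was seen. It encodes anillin, a scaffold of the cleavage furrow that myelinating cells also use.

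The minichromosome maintenance proteins Mcm2 to Mcm7 form the ring-shaped helicase that opens DNA for copying, and all 6 of their genes rose. Mcm6 read 562, 518, 530 and 307 in SEZ_GFPprom and 28, 27, 35 and 33 in DIEC_GFP (3.93 ± 0.22, adjusted p = 3.26e-06). Mcm5 read 1652, 1755, 1906 and 882 in SEZ_GFPprom and 89, 48, 24 and 159 in DIEC_GFP (4.55 ± 0.48, adjusted p = 0.000163). With shared probe sets left out Mcm5 differed by 3.30 (adjusted p = 0.00198). Mcm2, Mcm3, Mcm4 and Mcm7 differed by 1.89, 2.36, 2.25 and 2.16, and Mcm10, a replication initiation factor, by 1.84 (0.48 with shared probe sets left out, adjusted p = 0.319). Mcm8 and Mcm9, a separate pair that acts in DNA repair, differed by 0.23 (adjusted p = 0.724) and -0.94 (adjusted p = 0.199). The licensing factor gene Cdt1 read 655, 1206, 1530 and 677 in SEZ_GFPprom and 38, 70, 53 and 160 in DIEC_GFP (3.79 ± 0.43, adjusted p = 0.000254). Uhrf1, which carries DNA methylation through replication, differed by 3.40 ± 0.37 (adjusted p = 0.000195). Pclaf, a partner of the replication clamp and among the 15 highest differences, read 1107, 1099, 841 and 893 in SEZ_GFPprom and 29, 29, 66 and 55 in DIEC_GFP (4.55 ± 0.34, adjusted p = 2.93e-05).

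Among 30 genes of the G1 phase 12 rose (40%) and 1 fell (3.33%), with a median of 0.89, beside 10.1% and 7.78% of all genes. The D-type cyclins that carry cells into the cycle split: Ccnd2 read 5481, 5736, 5823 and 4274 in SEZ_GFPprom and 802, 468, 969 and 938 in DIEC_GFP (2.79 ± 0.23, adjusted p = 4.71e-05), while Ccnd1 differed by -0.59 (adjusted p = 0.249) and Ccnd3 by -0.10 (adjusted p = 0.795). Their kinases Cdk4 and Cdk6 differed by 1.72 and 2.48 (adjusted p = 0.00177 and 0.000435). The cycle inhibitors Cdkn1b and Cdkn2c also rose, by 1.88 (adjusted p = 0.00142) and 1.45 (adjusted p = 0.0133). With the spike-in block 3 of the 30 were called higher, beside 2.35% of all genes.

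Most of these genes read lower in SEZ_GFPprom than in SEZ_GFP: 66 of the 73 mitosis genes and 44 of the 47 replication genes had a prominin step below 0. Mki67 read 2000 and 2918 on the SEZ_GFP arrays and Mcm5 2876 and 3094. The median prominin step was -0.70 over mitosis genes and -0.72 over replication genes, and the median region step 3.58 and 2.42 (3.11 and 2.22 with the spike-in block, which leaves the prominin differences as they were). Of the mitosis genes 64 passed as higher in the region step (background 5.61%; 40 with the block, background 2.08%), and in the prominin step 1 passed as higher (2.63%) and none as lower (0.539%, or 3.17% of all genes either way).

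**Figure D3:**
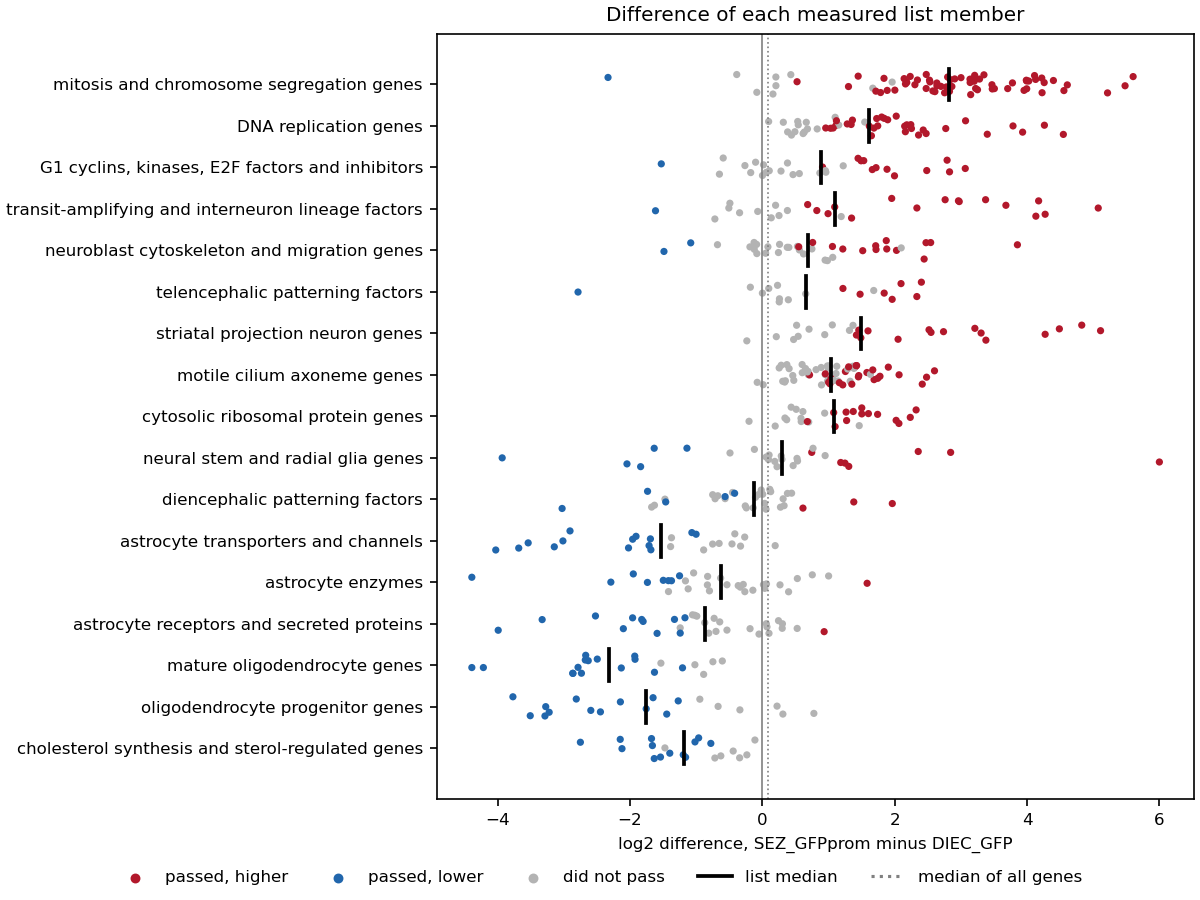
Log2 difference, SEZ_GFPprom minus DIEC_GFP (horizontal axis), of each measured member of 17 gene lists, coloured by the test (red passed as higher, blue passed as lower, grey did not pass), with a black bar at the list median and a dotted line at the median of all genes, 0.08. Mitosis genes sit far to the right (median 2.83), oligodendrocyte genes far to the left (median -2.31).

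The neurogenic lineage was the next group that stood high in SEZ_GFPprom. Of 27 transcription factors of transit-amplifying progenitors and interneurons 16 rose and 1 fell, with a median of 1.09 (15 rose without DIEC_GFP replicate 4, and 9 with the spike-in block). Of 36 neuroblast cytoskeleton and migration genes 14 rose and 2 fell, with a median of 0.68 (11 and 10 rose in those fits). These counts stand beside 10.1% of all genes higher and 7.78% lower, and 2.35% higher with the block. Dlx genes encode homeodomain factors that set the interneuron fate of these cells. Dlx1 read 510, 582, 1140 and 420 in SEZ_GFPprom and 45, 10, 7 and 35 in DIEC_GFP. The lowest SEZ_GFPprom array was far above the highest DIEC_GFP array, and SEZ_GFP read still higher, at 1749 and 1594 (5.07 ± 0.60, adjusted p = 0.000317). The antisense transcript Dlx1as, which lies across Dlx1, read 453, 392, 406 and 291 in SEZ_GFPprom and 23, 9, 10 and 40 in DIEC_GFP (4.49 ± 0.41, adjusted p = 6.72e-05). Dlx2 differed by 2.76 (adjusted p = 0.000791), Dlx6 by 0.82 (adjusted p = 0.0142) and the Dlx6 opposite-strand transcript Dlx6os1 by 3.68 (adjusted p = 0.000403). Dlx3 and Dlx5 did not pass, at 0.26 (adjusted p = 0.215) and 1.19 (adjusted p = 0.054). Dlx4 had another pattern: it read 214, 111, 188 and 160 in SEZ_GFPprom, 31, 22, 76 and 41 in DIEC_GFP and 20 and 19 in SEZ_GFP, so that its region step was -0.97 and its prominin step 3.07 (adjusted p = 0.00151).

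Meis2, a homeodomain partner of the Dlx factors, read 1381, 1837, 1799 and 1812 in SEZ_GFPprom and 118, 89, 64 and 116 in DIEC_GFP (18-fold, 4.17 ± 0.21, adjusted p = 3.26e-06). With shared probe sets left out it differed by 1.8 (adjusted p = 0.104). Sox11, a factor of newborn neurons, read 2081, 1619, 2550 and 1562 in SEZ_GFPprom and 117, 86, 83 and 170 in DIEC_GFP (4.13 ± 0.26, adjusted p = 8.71e-06). Insm1, a zinc finger factor of dividing neuron progenitors, differed by 3.37 ± 0.45 (adjusted p = 0.000638). Bcl11a, a factor of maturing neurons, read 468, 404, 256 and 230 in SEZ_GFPprom and 53, 60, 51 and 18 in DIEC_GFP (2.97 ± 0.38, adjusted p = 0.000514). Among neuroblast genes Dcx, which encodes the microtubule protein doublecortin, read 1023, 970, 1307 and 723 in SEZ_GFPprom and 102, 43, 50 and 98 in DIEC_GFP (3.85 ± 0.39, adjusted p = 0.000126). St8sia2, which builds the polysialic acid on migrating neuroblasts, differed by 1.71 (adjusted p = 0.000853) and the neuronal tubulin gene Tubb3 by 2.03 (adjusted p = 0.0045). Stmn1, a tubulin-binding gene of the neuroblast list, read 5604 to 5974 in SEZ_GFPprom and 5465 to 7549 in DIEC_GFP (-0.09, adjusted p = 0.715), and its relative Stmn4 fell by 1.49 (adjusted p = 0.000986). The median prominin step of both lists was below 0, at -0.85 and -0.90, and 5 of the 36 neuroblast genes passed as lower in SEZ_GFPprom than in SEZ_GFP (background 0.539%).

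Of the Sox family, 19 genes were measured and 4 rose and 2 fell, beside 10.1% and 7.78% of all genes. Apart from Sox11 these calls were fragile. Sox4, Sox12 and Sox14 rose by 1.95, 0.59 and 0.61 (adjusted p = 0.0254, 0.0351 and 0.0438), and Sox8 and Sox10, which act in glia, fell by 1.76 and 1.65 (adjusted p = 0.0466 and 0.045). Each of these 5 calls was lost on leaving out 1 of 4 to 11 arrays (adjusted p = 0.0509 to 0.128). The Id genes, which encode inhibitors of basic helix-loop-helix factors and respond to BMP, rose in 2 of 4: Id3 by 1.02 (adjusted p = 0.0162) and Id4 by 0.80 (adjusted p = 0.00816). Id1 differed by 0.93 (adjusted p = 0.0732) and Id2 by -0.07 (adjusted p = 0.932).

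Factors that pattern the forebrain were read by the part of it they are known for. Of 17 telencephalic factors 7 rose (41.2%) and 1 fell (5.88%), with a median of 0.65, beside 10.1% and 7.78% of all genes. Without DIEC_GFP replicate 4, 6 rose, and with the spike-in block 4 rose, beside 2.35% of all genes. Lhx2, a forebrain selector gene, read 99, 91, 131 and 76 in SEZ_GFPprom and 29, 22, 9 and 20 in DIEC_GFP (2.40 ± 0.33, adjusted p = 0.000755). Gsx2, which specifies the lateral ganglionic eminence, read 88, 182, 146 and 96 in SEZ_GFPprom and 27, 26, 15 and 33 in DIEC_GFP (2.33 ± 0.37, adjusted p = 0.00189). Six3, Emx2 and Vax1 rose by 1.96, 2.09 and 1.48 (adjusted p = 0.000346, 0.00584 and 0.00177), while Emx1, a factor of the cortex, differed by 0.39 (adjusted p = 0.181). Vax1 had a prominin step of -1.61 (adjusted p = 0.00852) and a region step of 3.08. The member that fell, Nkx6-2, is also a gene of myelinating cells and read 66, 56, 18 and 50 in SEZ_GFPprom and 332, 182, 395 and 315 in DIEC_GFP (-2.79, adjusted p = 0.00171).

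Of 32 diencephalic factors 5 fell (15.6%) and 3 rose (9.38%), beside 7.78% and 10.1% of all genes, with a median of -0.12. The higher share was thus close to that of all genes. Without DIEC_GFP replicate 4, 6 fell, and with the spike-in block 1 fell, beside 2.00% of all genes. The 5 became 1 without DIEC_GFP replicate 1, 2 without DIEC_GFP replicate 2 or SEZ_GFPprom replicate 2 or 3, and 3 without DIEC_GFP replicate 3, SEZ_GFPprom replicate 1 or either SEZ_GFP array. Irx2, an Iroquois homeobox gene, read 29, 20, 24 and 26 in SEZ_GFPprom and 92, 118, 63 and 65 in DIEC_GFP (-1.74 ± 0.22, adjusted p = 0.000438). It was the 1 of 6 measured Irx genes to pass. Irx3 differed by -1.67 (adjusted p = 0.0523) and Irx5 by -1.63 (adjusted p = 0.146), with SEZ_GFPprom arrays spread widely at 196, 61, 20 and 52 for Irx3 and at 177, 193, 14 and 222 for Irx5. Otx2, a gene of the caudal forebrain, differed by -1.47 (adjusted p = 0.0515) and Tcf7l2, the Wnt effector of thalamic cells, by -0.45 (adjusted p = 0.488). Among the 4 Zic genes Zic1 fell by 3.03 (adjusted p = 0.0412) and Zic5 rose by 1.38 (adjusted p = 0.0309), and leaving out 1 of several arrays ended either call (adjusted p = 0.0519 to 0.111). Zic1 read 93, 5, 5 and 48 in SEZ_GFPprom and 146, 164, 348 and 59 in DIEC_GFP, so that the groups overlapped.

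Genes of striatal projection neurons, the main neurons of the tissue next to the subependymal zone, also stood high. Of 25 such genes 15 rose and none fell, with a median of 1.49 (16 rose without DIEC_GFP replicate 4 and 10 with the spike-in block). Over all genes 10.1% rose, and 2.35% with the block. Scn4b, a sodium channel subunit, read 438, 1359, 1201 and 897 in SEZ_GFPprom and 83, 20, 16 and 17 in DIEC_GFP. SEZ_GFPprom replicate 1 was the lowest and DIEC_GFP replicate 1 the highest of its group (5.11 ± 0.52, adjusted p = 0.000124). Rasd2, the striatal small GTPase Rhes, read 910, 2051, 2675 and 2033 in SEZ_GFPprom and 169, 56, 83 and 20 in DIEC_GFP (4.83 ± 0.56, adjusted p = 0.000267). With shared probe sets left out Rasd2 differed by 3.61 (adjusted p = 0.000238). Gng7, a G protein subunit coupled to dopamine receptors, read 1008, 2522, 2548 and 1839 in SEZ_GFPprom and 87, 53, 92 and 111 in DIEC_GFP (4.49 ± 0.37, adjusted p = 4.71e-05). Bcl11b, the CTIP2 factor of these neurons, read 193, 1022, 1379 and 871 in SEZ_GFPprom and 44, 45, 39 and 22 in DIEC_GFP (4.27 ± 0.51, adjusted p = 0.000321). SEZ_GFPprom replicate 1 was the lowest of its group in Scn4b, Rasd2, Gng7 and Bcl11b alike, and the summed intensity of the 25 genes ran from 6458 to 16506 in SEZ_GFPprom and from 1626 to 2396 in DIEC_GFP. The phosphodiesterase genes Pde10a and Pde1b differed by 2.55 and 3.38 (adjusted p = 6.34e-05 and 4.71e-05). Ppp1r1b, the gene of DARPP-32, differed by 1.49 (adjusted p = 0.0101), and the dopamine receptor gene Drd1 by 0.52 (adjusted p = 0.237). Ddn, the gene of the dendritic protein dendrin, lay outside this list and read 1702, 3692, 4184 and 3226 in SEZ_GFPprom and 439, 78, 113 and 67 in DIEC_GFP (4.58 ± 0.53, adjusted p = 0.000262). These genes had positive medians in both steps, 1.19 for prominin and 0.53 for region.

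General neuronal genes depended on which DIEC_GFP arrays were used. Of 21 mature neuron genes 8 rose (38.1%, beside 10.1% of all genes) and none fell, with a median of 0.70. Without DIEC_GFP replicate 4, 6 rose and 3 fell (median 0.48), and with the spike-in block 9 rose (median 1.59, beside 2.35% of all genes). The count was 3 without any of SEZ_GFPprom replicates 2, 3 and 4 or DIEC_GFP replicate 2, and 5 without either SEZ_GFP array. Snap25, a gene of the vesicle release machinery, read 100, 206, 358 and 225 in SEZ_GFPprom and 438, 552, 498 and 20 in DIEC_GFP. DIEC_GFP replicates 1 to 3 lay above all SEZ_GFPprom arrays and replicate 4 below them (-0.13, adjusted p = 0.942; 3.34 with the spike-in block, adjusted p = 0.0113). Camk2a, a kinase of excitatory and striatal neurons, read 917, 1905, 1384 and 1434 in SEZ_GFPprom and 348, 154, 176 and 47 in DIEC_GFP (3.23 ± 0.50, adjusted p = 0.00152). Gad1, which makes GABA, read 221, 445, 599 and 362 in SEZ_GFPprom and 145, 166, 182 and 20 in DIEC_GFP (1.98 ± 0.62, adjusted p = 0.0458), a call lost on leaving out any of 11 arrays (adjusted p = 0.054 to 0.106). What part neurons in the sorted cells had in these values was not tested.

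Genes of motile cilia rose as well, with prominin and region steps of opposite sign. Of 62 axoneme genes 27 rose and none fell, with a median of 1.04, and 61 of the 62 differences were above 0 (24 rose without DIEC_GFP replicate 4, 5 with the spike-in block and 7 with the 3' to 5' ratio as a covariate). Beside these stand 10.1% of all genes higher, and 2.35% with the block. Foxj1, the master regulator of motile cilia, read 799, 975, 575 and 1086 in SEZ_GFPprom and 173, 144, 288 and 226 in DIEC_GFP. Every SEZ_GFPprom array lay above every DIEC_GFP array, while the SEZ_GFP arrays read only 64 and 62 (2.06 ± 0.25, adjusted p = 0.000403). The prominin step of Foxj1 was 3.73 (adjusted p = 5.67e-05) and its region step -1.67 (adjusted p = 0.00457). Meig1, a gene of ciliated cells and spermatids, read 164, 126, 90 and 166 in SEZ_GFPprom, 27, 28, 24 and 21 in DIEC_GFP and 11 and 9 in SEZ_GFP (2.42 ± 0.20, adjusted p = 4.71e-05). Armc4, which docks outer dynein arms, read 457, 622, 580 and 704 in SEZ_GFPprom and 134, 171, 96 and 172 in DIEC_GFP (2.07 ± 0.23, adjusted p = 0.000239). Spag17, of the central pair, differed by 2.48 and Drc1, of the nexin-dynein complex, by 1.78 (adjusted p = 0.00338 and 0.000755). The dynein heavy chain genes that open the list did not pass: Dnah1 differed by 1.01 (adjusted p = 0.193) and Dnah2 by 1.33 (adjusted p = 0.0636). In the prominin step 49 of the 62 passed as higher (background 2.63%), with a median of 3.15, and in the region step 38 passed as lower (background 7.05%), with a median of -1.97 (25 with the spike-in block, background 2.92%, median -2.01).

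Among 13 regulators of multiciliated cells 3 rose (23.1%, beside 10.1% of all genes) and none fell (1 rose with the spike-in block). Deup1, which builds the many centrioles of such cells, read 128, 102, 74 and 126 in SEZ_GFPprom and 38, 30, 13 and 25 in DIEC_GFP (2.09 ± 0.32, adjusted p = 0.00147), and Rfx2 and Rfx3, factors that switch on cilium genes, differed by 0.10 (adjusted p = 0.86) and 0.52 (adjusted p = 0.0946). The secreted BMP and Wnt antagonist gene Sostdc1 had a prominin step of 3.01 and a region step of 0.01, with 156, 134, 127 and 191 in SEZ_GFPprom, 14, 28, 19 and 16 in DIEC_GFP and 29 and 12 in SEZ_GFP (3.01 ± 0.34, adjusted p = 0.000257). Of 13 mural cell genes 2 rose and 2 fell (15.4% each, beside 10.1% and 7.78% of all genes). Both that rose, Acta2 and Tagln, encode proteins of contractile cells and had region steps of -0.60 and 0.02. Tagln read 126, 96, 67 and 85 in SEZ_GFPprom, 26, 14, 25 and 18 in DIEC_GFP and 19 and 22 in SEZ_GFP (2.18 ± 0.26, adjusted p = 0.000341). Acta2 read 1789, 972, 611 and 1176 in SEZ_GFPprom and 32, 50, 48 and 67 in DIEC_GFP (4.47 ± 0.32, adjusted p = 1.91e-05), but differed by 0.12 (adjusted p = 0.659) with shared probe sets left out. Urah, a uric acid pathway enzyme among the 15 highest differences, read 1091, 1041, 290 and 637 in SEZ_GFPprom and 28, 26, 36 and 29 in DIEC_GFP (4.52 ± 0.38, adjusted p = 4.71e-05), and is read by shared probe sets alone.

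**Figure D4:**
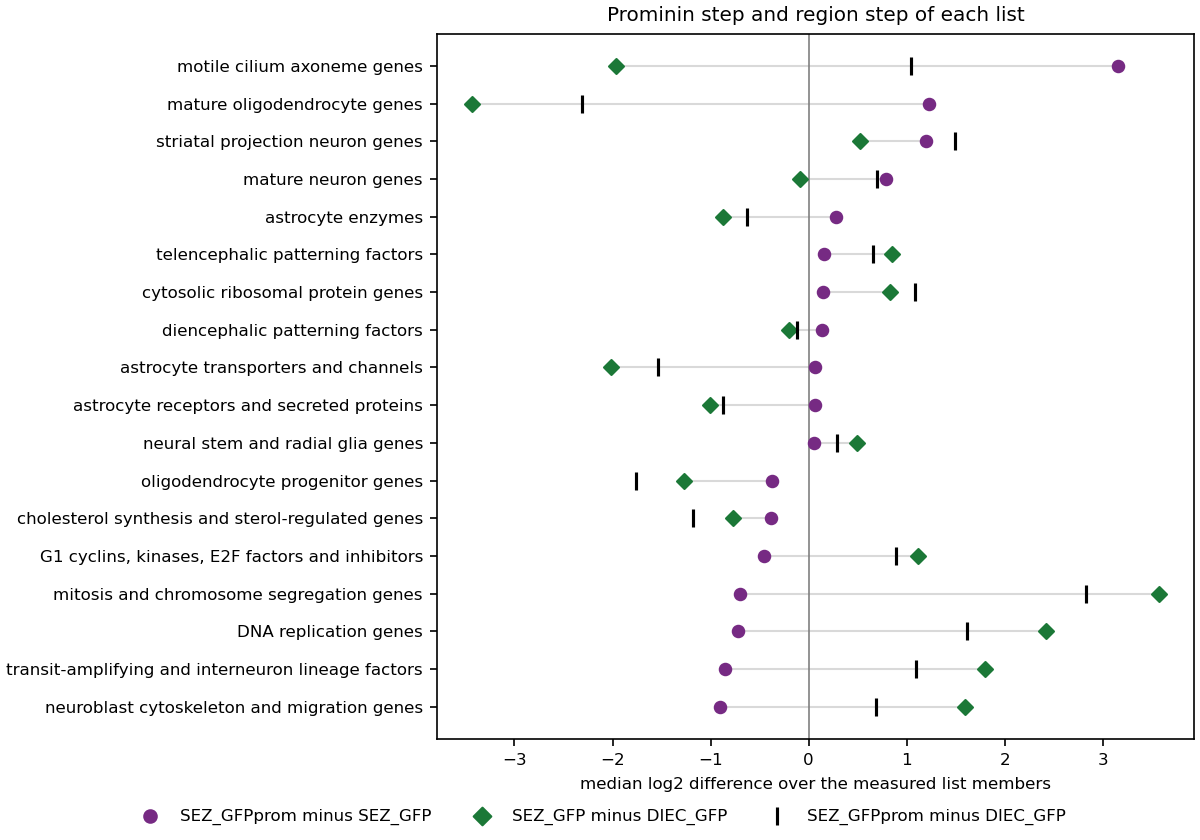
Median log2 difference of 18 gene lists (horizontal axis) in the prominin step, SEZ_GFPprom minus SEZ_GFP (purple circles), in the region step, SEZ_GFP minus DIEC_GFP (green diamonds), and in their sum for each gene, SEZ_GFPprom minus DIEC_GFP (black ticks, the median of the sums). Axoneme genes have a prominin step of 3.15 and a region step of -1.97, mitosis genes -0.70 and 3.58. The steps share the SEZ_GFP arrays with opposite sign, so a deviation of those 2 arrays moves both markers apart.

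Genes of mature astrocytes were lower in SEZ_GFPprom. Of 24 transporter and channel genes 14 fell and none rose, with a median of -1.54 (16 fell without DIEC_GFP replicate 4, median -1.96, and 5 with the spike-in block, median -0.58). Among all genes 7.78% fell, and 2.00% with the block. Gjb6, the gap junction gene connexin 30, read 184, 160, 203 and 141 in SEZ_GFPprom and 2444, 3110, 2861 and 1050 in DIEC_GFP. All SEZ_GFPprom arrays were far below DIEC_GFP replicate 4, the lowest of its group (-3.68 ± 0.34, adjusted p = 6.72e-05; -2.62 with the spike-in block, adjusted p = 0.00574). Slc7a10, a serine and alanine carrier, read 125, 78, 125 and 65 in SEZ_GFPprom and 1341, 1338, 1373 and 587 in DIEC_GFP (-3.54 ± 0.37, adjusted p = 0.000141). Slc6a11, the GABA carrier GAT-3, read 20, 28, 40 and 24 in SEZ_GFPprom and 297, 308, 266 and 135 in DIEC_GFP (-3.14 ± 0.29, adjusted p = 6.95e-05). The ATPase gene Atp13a4 read 93, 142, 128 and 155 in SEZ_GFPprom and 2586, 1775, 2448 and 1655 in DIEC_GFP (-4.03 ± 0.21, adjusted p = 3.26e-06). The water channel gene Aqp4 fell by 1.71 (adjusted p = 0.00987) and the bicarbonate carrier gene Slc4a4 by 2.91 (adjusted p = 0.000638), neither of which passed with the spike-in block (-0.97 and -1.84, adjusted p = 0.44 and 0.0619). The main glutamate carriers did not pass. Slc1a2 read 5415 to 6182 in SEZ_GFPprom and 2928 to 6353 in DIEC_GFP (0.19, adjusted p = 0.714), and Slc1a3 differed by -0.65 (adjusted p = 0.167). Gja1, the connexin 43 gene, differed by -0.42 (adjusted p = 0.302).

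Of 31 astrocyte enzymes 8 fell (25.8%) and 1 rose (3.23%), beside 7.78% and 10.1% of all genes. The median was -0.63 (13 fell without DIEC_GFP replicate 4, median -0.93). With the spike-in block the median was -0.01 and none fell, while 7 were lower at an unadjusted limma p below 0.05. Etnppl, which breaks down phosphoethanolamine, read 90, 34, 28 and 108 in SEZ_GFPprom and 1976, 1591, 1621 and 351 in DIEC_GFP (-4.39 ± 0.68, adjusted p = 0.00153; -2.67 with the block, adjusted p = 0.142). Glul, glutamine synthetase, read 773 to 1410 in SEZ_GFPprom and 917 to 1586 in DIEC_GFP (-0.14, adjusted p = 0.815). The glycine-cleaving enzyme gene Gldc rose, with 600, 806, 684 and 640 in SEZ_GFPprom and 293, 303, 203 and 146 in DIEC_GFP (1.58 ± 0.30, adjusted p = 0.00427). Of 31 receptors and secreted proteins 11 fell (35.5%) and 1 rose (3.23%), beside the same shares of all genes. Their median was -0.87 (13 fell without DIEC_GFP replicate 4, median -1.06, and 3 with the block, median -0.38, beside 2.00% of all genes). Agt, the angiotensin precursor, read 116, 145, 96 and 229 in SEZ_GFPprom and 3126, 2332, 3133 and 1037 in DIEC_GFP (-3.99 ± 0.46, adjusted p = 0.000266). Itih3, which binds hyaluronan, read 921, 724, 948 and 571 in SEZ_GFPprom and 9530, 8635, 8160 and 5462 in DIEC_GFP (-3.33 ± 0.38, adjusted p = 0.000266). S100b fell by 1.96 (adjusted p = 0.00838), and the fibroblast growth factor receptor gene Fgfr3 by 1.8 (adjusted p = 0.00232). In the 3 astrocyte lists, in the order given here, the median prominin step was 0.06, 0.28 and 0.06, beside 0.07 over all genes, and it was below 0 in 9 of 24, 7 of 31 and 12 of 31 genes. The median region step was -2.02, -0.87 and -1.0, and with the block -1.09, -0.24 and -0.42.

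The lowest difference of all was that of Aldh1a1, a retinaldehyde dehydrogenase that makes retinoic acid, which read 9, 11, 9 and 23 in SEZ_GFPprom and 943, 761, 1339 and 177 in DIEC_GFP. Aldh1a1 differed by -5.75 ± 0.59 (adjusted p = 0.000126; -3.89 with the spike-in block, adjusted p = 0.0102). SEZ_GFP read 8 and 10, so the region step was -6.17 and the prominin step 0.42. That region step holds for the GFP sort only. Other sorts of the subependymal zone read higher, with 638 and 248 in the CD24 sort and 67 and 142 in the prominin sort. Of 18 retinoic acid genes 3 rose and 3 fell (16.7% each, beside 10.1% and 7.78% of all genes), also without DIEC_GFP replicate 4. With the spike-in block none rose and 1 fell (3 were higher at an unadjusted limma p below 0.05). Rxrg, a retinoid receptor, differed by 2.52 (adjusted p = 0.00156) and Cyp26b1, which breaks retinoic acid down, fell by 1.62 (adjusted p = 0.00805). The relatives of Aldh1a1, Aldh1a2 and Aldh1a3 were dim in both groups, at 6 to 7 and 18 to 25 in SEZ_GFPprom and 5 to 8 and 15 to 20 in DIEC_GFP. Igsf1, a membrane protein gene of the pituitary and hypothalamus, read 31, 61, 32 and 34 in SEZ_GFPprom and 1072, 1270, 1404 and 559 in DIEC_GFP (-4.75 ± 0.30, adjusted p = 8.71e-06). Adcy8, a calcium-stimulated adenylyl cyclase, read 9, 10, 7 and 12 in SEZ_GFPprom and 257, 372, 237 and 133 in DIEC_GFP (-4.65 ± 0.35, adjusted p = 3.2e-05). Other genes among the 15 lowest were Klhl4, Chl1, Lrp1b, Cpm and Sulf1, which fell by 4.31, 4.15, 3.77, 3.71 and 3.70 (adjusted p = 0.001, 0.00148, 0.000266, 0.00318 and 0.00132).

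Genes of both stages of the oligodendrocyte lineage were lower in SEZ_GFPprom. Of 20 genes of mature oligodendrocytes, the myelin-forming cells, 15 fell and none rose, with a median of -2.31 (13 fell without DIEC_GFP replicate 4 and 10 with the spike-in block). Of 19 progenitor genes 13 fell and none rose, with a median of -1.76 (11 and 5). Both lists stand beside 7.78% of all genes lower, and 2.00% with the block. Klk6, a protease of these cells, read 72, 139, 33 and 115 in SEZ_GFPprom and 982, 1927, 1247 and 1919 in DIEC_GFP (-4.22 ± 0.41, adjusted p = 0.000108). Gpr37, a receptor that slows myelination, read 38, 30, 27 and 24 in SEZ_GFPprom and 401, 1983, 392 and 458 in DIEC_GFP (-4.39 ± 0.51, adjusted p = 0.000271). Mbp, myelin basic protein, read 5232, 5342, 4147 and 5175 in SEZ_GFPprom, 12372, 11965, 10448 and 11012 in DIEC_GFP and 1854 and 1435 in SEZ_GFP (-1.21 ± 0.15, adjusted p = 0.000403). Of these 3 groups Mbp thus stood lowest in SEZ_GFP, with a prominin step of 1.6 and a region step of -2.81, and so did the list, at 1.23 and -3.43 (-4.10 with the spike-in block). The prominin sort of the subependymal zone had list means of 10.3 and 10.5 log2 units, within the 10.2 to 11.1 of DIEC_GFP.

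Progenitor genes split by step in another way, with medians of -0.37 for prominin and -1.27 for region (-0.67 with the spike-in block). Cspg4, the NG2 proteoglycan, read 45, 63, 36 and 64 in SEZ_GFPprom, 538, 389, 703 and 401 in DIEC_GFP and 349 and 286 in SEZ_GFP. SEZ_GFP lay close to DIEC_GFP, and the prominin step took most of the difference (-3.29 ± 0.26, adjusted p = 4.7e-05; prominin step -2.64, adjusted p = 0.000581). Matn4 and Vcan, which encode matrix proteins, had prominin steps of -2.30 and -1.89 (adjusted p = 0.00726 and 0.0137), and these 3 were the members that passed in that step. Pdgfra, the growth factor receptor of these progenitors, read 203, 310, 245 and 265 in SEZ_GFPprom and 2265, 1893, 1257 and 1003 in DIEC_GFP (-2.59 ± 0.46, adjusted p = 0.00304), and the lineage factors Olig1 and Olig2 fell by 3.22 and 2.15 (adjusted p = 0.000502 and 0.002). Gpr17, a receptor of progenitors about to mature, read 196, 147, 109 and 130 in SEZ_GFPprom and 2622, 2012, 2062 and 1298 in DIEC_GFP (-3.77 ± 0.51, adjusted p = 0.000694).

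Cholesterol synthesis genes were lower in SEZ_GFPprom as well. Of 20 genes 13 fell, none rose and all 20 differences were below 0, with a median of -1.18 (10 fell without DIEC_GFP replicate 4, 5 with the spike-in block and 6 with the 3' to 5' covariate). Over all genes 7.78% fell, and 2.00% with the block. Cyp51, the lanosterol demethylase, had the smallest adjusted p of them. The 250 bases before its RefSeq start lie at chr5:4104698-4104947 on the minus strand of GRCm38.p6 and are shown 5′ to 3′ for the CCAAT box close to the start, in capitals.
Cyp51: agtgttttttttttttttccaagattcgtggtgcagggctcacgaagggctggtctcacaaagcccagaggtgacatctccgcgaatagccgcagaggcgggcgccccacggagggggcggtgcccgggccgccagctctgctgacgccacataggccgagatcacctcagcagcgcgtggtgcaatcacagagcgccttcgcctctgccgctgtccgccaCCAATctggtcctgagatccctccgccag
A CCAAT box was found in 93.8% of the 16 promoters of this list in the table, against 38.2% of all tested. The letters CACCCCA or TGGGGTG, part of a sterol regulatory element, were found in 12.5% of them and in 8.18% of all tested. Cyp51 read 177, 119, 175 and 146 in SEZ_GFPprom and 475, 851, 708 and 674 in DIEC_GFP. The groups did not overlap (-2.12 ± 0.20, adjusted p = 7.13e-05). Dhcr7, which makes cholesterol in the last step, read 194, 186, 78 and 166 in SEZ_GFPprom and 456, 698, 752 and 753 in DIEC_GFP (-2.15 ± 0.30, adjusted p = 0.000797). Nsdhl, Mvd and Idi1 fell by 1.54, 1.66 and 1.40 (adjusted p = 0.0018, 0.00348 and 0.00794), and Hmgcs1, which opens the pathway, by 1.02 (adjusted p = 0.00844). Mvk and Pmvk, the kinases of mevalonate, differed by -0.44 and -0.23 (adjusted p = 0.201 and 0.648).

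Signalling pathways had calls in both directions, to be read beside 10.1% of all genes higher and 7.78% lower, or 2.35% and 2.00% with the spike-in block. Of 27 Notch pathway genes 4 rose (14.8%) and 5 fell (18.5%), with a median of 0.04. The counts were 3 and 5 without DIEC_GFP replicate 4. With the spike-in block none passed in either direction, with 3 higher and 3 lower at an unadjusted limma p below 0.05, so every Notch pathway call named here was lost in that fit. Notch1 read 1353 to 2365 in SEZ_GFPprom and 1132 to 1906 in DIEC_GFP (0.22, adjusted p = 0.606), and Notch2 and Notch3 differed by 0.62 (adjusted p = 0.145) and -0.99 (adjusted p = 0.0601). Notch4 read 55, 22, 35 and 15 in SEZ_GFPprom and 11, 12, 17 and 10 in DIEC_GFP, so that the groups overlapped, and rose by 1.21 (adjusted p = 0.0468), a call lost on leaving out any of 12 arrays (adjusted p = 0.0523 to 0.108). The Notch target genes Hes1, Heyl and Nrarp fell by 1.48, 2.16 and 1.43 (adjusted p = 0.0122, 0.0025 and 0.00894). Heyl read 22, 50, 55 and 27 in SEZ_GFPprom and 267, 120, 178 and 113 in DIEC_GFP. The ligand gene Dner fell by 1.34 (adjusted p = 0.00792), and Mfng, whose enzyme adds sugars to Notch, rose by 1.31 (adjusted p = 0.0103).

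Of 30 genes of the BMP pathway 7 rose (23.3%) and 4 fell (13.3%), with a median of 0.18. When DIEC_GFP replicate 4 was left out, 7 rose and 2 fell, and with the spike-in block 3 rose and 1 fell (median 0.36). The ligands ran in both directions: Bmp4 read 31, 33, 19 and 18 in SEZ_GFPprom and 221, 111, 186 and 126 in DIEC_GFP (-2.67 ± 0.35, adjusted p = 0.000554), and Bmp6 read 364, 330, 254 and 489 against 116, 171, 75 and 66 (1.81 ± 0.34, adjusted p = 0.00441). Bmp6 also had opposed steps, 3.61 for prominin and -1.8 for region. Of 44 Wnt pathway genes 4 rose (9.09%) and 7 fell (15.9%), with a median of -0.14. There were 5 higher and 6 lower without DIEC_GFP replicate 4, and 1 higher and 2 lower with the block (median 0.03). The lower count was 3 without SEZ_GFPprom replicate 1 or 3, and 4 without SEZ_GFPprom replicate 4 or DIEC_GFP replicate 1, 2 or 3. Dkk3, a secreted Dickkopf relative, read 961, 1411, 1207 and 1020 in SEZ_GFPprom and 231, 157, 118 and 191 in DIEC_GFP (2.75 ± 0.29, adjusted p = 0.000146), and the Wnt inhibitor gene Sfrp1 differed by 2.29 (adjusted p = 0.00147). Rspo3, which strengthens Wnt signals, read 7, 9, 7 and 10 in SEZ_GFPprom and 65, 37, 68 and 38 in DIEC_GFP (-2.62 ± 0.24, adjusted p = 6.72e-05; -2.32 with values under 10 set to 10).

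Of 15 hedgehog pathway genes 2 rose and 2 fell (13.3% each), also without DIEC_GFP replicate 4, and with the spike-in block 1 rose and 2 fell. Ptch1, the receptor and a target of the pathway, read 606, 702, 751 and 534 in SEZ_GFPprom and 2978, 4046, 3815 and 1518 in DIEC_GFP (-2.17 ± 0.27, adjusted p = 0.000418), and the coreceptor gene Gas1 read 1055, 860, 822 and 959 against 396, 484, 370 and 343 (1.22 ± 0.15, adjusted p = 0.000398). The ligand gene Shh was dim, at 13 to 16 in SEZ_GFPprom and 12 to 35 in DIEC_GFP. Of 30 genes of the EGF and FGF systems 2 rose (6.67%) and 7 fell (23.3%), with a median of -0.37, and 3 fell without DIEC_GFP replicate 2. Without DIEC_GFP replicate 4, 2 rose and 8 fell (median -0.51), and with the spike-in block none rose, with 1 higher at an unadjusted limma p below 0.05, and 1 fell (median -0.03). Egfr, the receptor of activated stem cells and transit-amplifying progenitors, read 373, 313, 420 and 224 in SEZ_GFPprom and 172, 274, 374 and 143 in DIEC_GFP (0.53 ± 0.33, adjusted p = 0.297). The groups overlapped. Spry1, a feedback brake on these receptors, fell by 1.59 (adjusted p = 0.00718).

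The next 3 lists are again to be read beside 10.1% of all genes higher and 7.78% lower, or 2.35% and 2.00% with the spike-in block. Of 26 glutamate and GABA receptor genes 8 fell (30.8%) and 2 rose (7.69%), with a median of -0.62. The lower count was 5 without DIEC_GFP replicate 1 or 2 or SEZ_GFPprom replicate 1, and 4 without SEZ_GFPprom replicate 2. Gria1, an AMPA receptor subunit, read 108, 246, 304 and 116 in SEZ_GFPprom and 1491, 583, 833 and 379 in DIEC_GFP (-2.05 ± 0.45, adjusted p = 0.00954). Gria4 and Grin3a fell by 2.63 and 2.03 (adjusted p = 0.0035 and 0.00124), and with the spike-in block 1 gene of the list passed as lower (median -0.13). Among 35 matrix genes 9 fell (25.7%) and 4 rose (11.4%), and the counts were the same without DIEC_GFP replicate 4. The lower count was 5 without SEZ_GFPprom replicate 2, and with the spike-in block 2 fell and 2 rose. Spon1, a spondin, read 423, 405, 329 and 288 in SEZ_GFPprom and 1711, 1547, 1250 and 1046 in DIEC_GFP (-1.93 ± 0.21, adjusted p = 0.000211). Of 16 interferon and antigen presentation genes 5 fell (31.25%) and 1 rose (6.25%). Without DIEC_GFP replicate 4, 4 fell, and with the block 3. H2-Aa, a class II antigen-presenting chain, read 24, 19, 34 and 31 in SEZ_GFPprom and 198, 259, 282 and 163 in DIEC_GFP (-3.06 ± 0.26, adjusted p = 4.83e-05), and Ifitm3, an antiviral membrane gene, read 2261, 1367, 1539 and 2501 against 202, 195, 321 and 680 (2.61 ± 0.48, adjusted p = 0.00374). H2-Aa is read by shared probe sets alone, and without such probe sets 1 member was called lower.

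Cytosolic ribosomal protein genes rose in 14 of 26 (53.8%) and none fell, with a median of 1.09. This stands beside 10.1% of all genes higher, or 2.35% with the spike-in block. Their summed intensity ran from 99276 to 113841 in SEZ_GFPprom and from 40378 to 76318 in DIEC_GFP. Rpl22 read 5673, 5875, 6020 and 5563 in SEZ_GFPprom and 1828, 1267, 2429 and 2337 in DIEC_GFP (1.6 ± 0.20, adjusted p = 0.000403), and Rpl14 differed by 2.23 (adjusted p = 0.000694). The count was 11 without DIEC_GFP replicate 4, 9 without DIEC_GFP replicate 2, 6 with the 3' to 5' covariate, 3 with the spike-in block and 5 with shared probe sets left out. Ribosomal protein genes have many near-identical pseudogenes, whose signal these probe sets cannot tell apart. Respiratory chain genes rose in 13 of 36 (36.1%) and fell in 3 (8.33%), beside 10.1% and 7.78% of all genes. The lower share was thus close to that of all genes. Without DIEC_GFP replicate 4, 7 fell. The higher count was 7 without DIEC_GFP replicate 2, 8 without SEZ_GFPprom replicate 2 and 0 with either the covariate or the spike-in block. With limma's unadjusted p below 0.05, 5 of its genes were higher with the covariate and 3 with the block.

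Markers of other cells that the sorts could hold were read beside these results. Of 19 microglia genes 2 fell (10.5%, beside 7.78% of all genes). None fell without DIEC_GFP replicate 4 (2 at an unadjusted limma p below 0.05) or with the spike-in block (also 2). Their summed intensity ran from 2711 to 5290 in SEZ_GFPprom and from 3414 to 14867 in DIEC_GFP. The endothelial markers Pecam1 and Cdh5 read 7 to 9 and 7 to 10 in SEZ_GFPprom, against 6 to 7 and 7 to 9 in DIEC_GFP, and none of 13 endothelial genes passed, with 1 higher at an unadjusted limma p below 0.05. Hba-a1, a globin gene and the first of 4 erythroid genes of which none passed (0 also at an unadjusted limma p below 0.05), read 8 to 13 in SEZ_GFPprom and 8 to 11 in DIEC_GFP. Of 4 sex-linked genes 2 fell, beside 7.78% of all genes. Uty, a Y-linked gene, read 13, 12, 21 and 18 in SEZ_GFPprom and 43, 137, 31 and 43 in DIEC_GFP (-1.76 ± 0.49, adjusted p = 0.0286), a call lost on leaving out any of 3 arrays (adjusted p = 0.0653 to 0.0744). The summed intensity of the 4 genes ran from 222 to 2771 in SEZ_GFPprom and from 499 to 2848 in DIEC_GFP. Xist, an X-linked gene of the list, read 38 and 83 on the SEZ_GFP arrays and 3294 and 3522 on the arrays of the CD24 sort. The labels used here give no sex, and its part in the differences and steps was not tested. Of 12 choroid plexus genes 1 rose, Sostdc1 (8.33%, beside 10.1% of all genes). Ttr, the defining transthyretin gene, read 1421, 4322, 117 and 7169 in SEZ_GFPprom and 1132, 1957, 772 and 8456 in DIEC_GFP (-0.37, adjusted p = 0.873). Of 22 immediate early and dissociation genes none passed, at a median of 0.26 and with 1 higher at an unadjusted limma p below 0.05. Fos read 4793 to 7746 in SEZ_GFPprom and 6234 to 9812 in DIEC_GFP. The labelled identities covered defining markers only in part. SEZ_GFPprom arrays held stem cell genes together with those of dividing progenitors, neuroblasts, ciliated cells and striatal neurons. DIEC_GFP arrays held the astrocyte genes Slc1a2, Aqp4 and Agt together with oligodendrocyte lineage genes, at 1228 to 8413 for the myelin gene Mobp and 5188 to 7527 for Olig1. Some of these genes read high in both groups. Slc1a2 read 5415 to 6182 in SEZ_GFPprom. Mature oligodendrocyte genes summed to 14229 to 23939 in SEZ_GFPprom, against 45459 to 77258 in DIEC_GFP. Axoneme genes summed to 13722 to 18905 in DIEC_GFP, against 25846 to 43906 in SEZ_GFPprom. The share of each cell type was not tested.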

How the data were processed

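The deposited values are intensity values on a linear scale, in whole numbers, from Affymetrix mouse arrays. RMA was used, with no version given, per the submitters' processing notes. Per the labels' protocols, RNA was amplified in 2 rounds and labelled with biotin. The genome build behind the arrays' annotation is not given in the sources used here. The plan allowed for log2 values, so log2 of the deposited values was taken, with no pseudocount.

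Of 45101 probe sets 34945 had 1 gene symbol. The brightest probe set by its mean on the 14 arrays stood for each of 18193 genes. Testing used limma 3.58.1 under R 4.3.3, in 1 fit of all 14 arrays with a mean per group, two-sided, with Benjamini-Hochberg adjusted p over the 18193 genes and a threshold of 0.05. For this comparison, data were also simulated in which 200 of these 18193 genes changed and the noise was normal and independent between arrays. There the fit recovered 44% of genes changed by 1 log2 unit, 76% by 2, 92% by 3 and 100% by 4. Of its calls 6.02% were unchanged genes. The simulation held no spike-in split, no difference in RNA quality and far fewer changed genes than the 3247 called here. The 6.02% therefore does not measure the share of unchanged genes among the calls of this report.

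The members and the 36 gene lists were chosen with earlier results of these data known. The named genes are drawn from the 15 highest and 15 lowest differences, up to 8 called and the first 4 members of each list, families and sorting genes, and the examples printed were chosen from these after their values were seen. The 15 at each end were taken only among genes that passed, whose groups did not overlap and whose brighter group averaged 50 or more. Clone names were left out, with 1 passed over among the lowest. Alternatives were normalization, filters on dim genes, a floor of 10, probe set choice, covariates, blocks and leaving out each array. Promoters are RefSeq sequences, with the coordinates of the RefSeq table on GRCm38.p6. The number of arrays limits the precision.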

Additional observations from a re-analysis of the deposited data

Results flagged for a closer look

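Both groups of each of 192 printed genes were searched for single arrays far from the others of their group of 4, and 29 were found. The measure was the gap to the nearest array over the range of the log2 values (above Dixon's 95% critical value for 4 arrays). Chance flags about 1 in 20 groups.

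DIEC_GFP replicate 4 was low in Bcl11a (18, the others 51 to 60), Etnppl (351, the others 1591 to 1976), Gad1 (20, the others 145 to 182), Pecam1 (6, the others 7), Slc1a3 (1151, the others 1922 to 2109), Slc4a4 (2261, the others 5814 to 6449), Slc7a10 (587, the others 1338 to 1373) and Snap25 (20, the others 438 to 552). It was high in Mki67 (151, the others 22 to 28). DIEC_GFP replicate 1 was low in Dhcr7 (456, the others 698 to 753) and Rfx3 (53, the others 69 to 72) and high in Scn4b (83, the others 16 to 20). DIEC_GFP replicate 2 was high in Gpr37 (1983, the others 392 to 458).

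Among SEZ_GFPprom arrays, replicate 1 was low in Meis2 (1381, the others 1799 to 1837), Rxrg (127, the others 253 to 288) and Vax1 (71, the others 98 to 104), and read 7 in Aldh1a2 where the others read 6. Replicate 2 was high in Igsf1 (61, the others 31 to 34), Klhl4 (31, the others 7 to 9) and Tnc (81, the others 37 to 41), and low in Id4 (2674, the others 3257 to 3376) and Stmn1 (5604, the others 5910 to 5974). Replicate 3 was low in Gja1 (3340, the others 4718 to 4912), Irx5 (14, the others 177 to 222) and Mbp (4147, the others 5175 to 5342), and high in Insm1 (251, the others 158 to 162) and Slc1a2 (6182, the others 5415 to 5476). Replicate 4 was low in Cdca5 (97, the others 554 to 792) and Mcm6 (307, the others 518 to 562).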

How the results depend on the processing

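With the spike-in signal as a block, chosen after seeing the data, 427 genes were higher and 363 lower, and 65 of the 147 printed genes that passed no longer did. Called genes numbered 5 for astrocyte transporters, 3 for astrocyte receptors, 4 for telencephalic factors, 9 for transit-amplifying factors, 9 for replication, 36 for mitosis, 3 for G1, 5 for axoneme, 5 for oligodendrocyte progenitors, 5 for cholesterol, 1 for glutamate and GABA receptors, 3 for interferon, 3 for ribosomal and 0 for respiratory chain genes. Snap25 was 3.34 there, against -0.13 without the block. The 3' to 5' ratio as a covariate left 768 genes higher and 718 lower, and the counts were 4 for astrocyte receptors, 7 for axoneme, 6 for cholesterol, 2 for glutamate and GABA receptors, 3 for interferon, 6 for ribosomal and 0 for respiratory chain genes. The sizes moved too in some lists with the spike-in block, with medians of -0.58 for astrocyte transporters, -0.01 for astrocyte enzymes, -0.38 for astrocyte receptors, -0.03 for EGF and FGF genes and -0.13 for glutamate and GABA receptors, against -1.54, -0.63, -0.87, -0.37 and -0.62 without it. Without shared probe sets the counts were 1 for interferon, 5 for ribosomal and 5 for respiratory chain genes, and Lrig1 was 0.49, against -3.93 with them. Without the dimmest 50% of genes they were 4 for telencephalic factors and 3 for interferon. Mature neuron genes numbered 3 with only the 8 arrays compared, 4 with values under 10 set to 10 and 4 with the mean of probe sets. The cause was not tested.

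Leaving out each array in turn gave 1197 to 1832 higher and 975 to 1491 lower genes, 3 to 9 mature neuron, 4 to 8 glutamate and GABA receptor, 9 to 16 ribosomal and 7 to 13 respiratory chain genes. Replicate numbers were not shown to pair the arrays: same-numbered arrays deviated with r = -0.0642, -0.0808, 0.0132 and 0.0061. With the replicate block the counts were 1629 higher and 1315 lower.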
